A study of Mus musculus with 8 samples.

Results

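Aire, Fezf2, Prdm1, and Deaf1 are nuclear proteins that regulate the expression of tissue-restricted self-antigens or the cells that display them. Their transcripts were examined in 3 populations of thymic epithelial cells (TECs), and the 4 genes were taken by symbol from the 55450 genes of the deposited RNA-sequencing table. CD45-EpCAM+ cells were sorted at embryonic day 17 (E17) from RANK-Venus/CCL21a-tdTomato mouse embryos, which carried both a tdTomato reporter knocked into Ccl21a and a transgenic Venus reporter of Tnfrsf11a, the gene for RANK. The populations were CCL21+RANK- TECs (3 libraries), CCL21-RANK+ TECs (3 libraries), and CCL21-RANK- TECs (2 libraries). All 3 came from embryos of this 1 genotype with no treatment named, so the signs refer to reporter fluorescence and not to the proteins themselves. How many embryos were pooled per library is not given in the sources used here, so that the p-values measure the spread between these libraries, part of which may be technical. The libraries held between 42751839 and 71625282 counts. The first CCL21-RANK+ library stood above the other two for many rare transcripts, and the CCL21-RANK- libraries differed from each other in Aire and Fezf2, and the results that moved most with these libraries are also given without them. All 8 libraries carried Epcam, used in the sort, and Foxn1, the master regulator of TECs. Epcam was between 49.5 and 156 RPKM and Foxn1 between 50.7 and 105 RPKM, where RPKM stands for counts scaled to exon length and library total. The summed level of 8 listed TEC markers was lower in CCL21-RANK+ libraries, at 1690 to 2050 RPKM. It was 4850 to 5560 RPKM in CCL21+RANK- libraries and 4320 and 4630 RPKM in CCL21-RANK- libraries. Krt8 led the sum in CCL21-RANK+ libraries and Krt18 in all others. Epcam and Krt14 instead had their highest mean in CCL21-RANK+ TECs. Epcam was at 133 RPKM there, against 59.6 RPKM in CCL21+RANK- and 72.7 RPKM in CCL21-RANK- TECs. The 4 listed parathyroid markers summed to between 1750 and 7120 RPKM in CCL21+RANK- libraries and between 11.1 and 24.9 RPKM in all others.

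Thymic medullary epithelial cells (mTECs) express a large number of genes that are otherwise restricted to peripheral tissues, and developing T cells that react to these self-antigens are deleted or diverted into regulatory T cells. Aire, mutated in a human multi-organ autoimmune syndrome, releases paused transcription at many such genes in mature mTECs. Fezf2, a zinc finger protein first known from cortical neurons, drives a set of self-antigens that is largely separate from that of Aire. Prdm1 encodes Blimp1, a zinc finger repressor best known from plasma cells and epidermis and also found in a subset of TECs. Deaf1 is a widely expressed transcription factor that shares the SAND domain with Aire and has been linked to tissue antigens in lymph node stroma.

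Aire, Fezf2, and Prdm1 were at their highest level in CCL21-RANK+ TECs, whereas the group means of Deaf1 lay between 2.26 and 3.06 RPKM. Levels in RPKM allow genes of different length to be compared. Aire was 138-fold higher in CCL21-RANK+ TECs than in CCL21+RANK- TECs and Fezf2 was 395-fold higher, while Deaf1 was 0.801-fold. In these pooled cells, fewer cells of a type and less RNA per cell cannot be told apart.

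**Figure D1:**
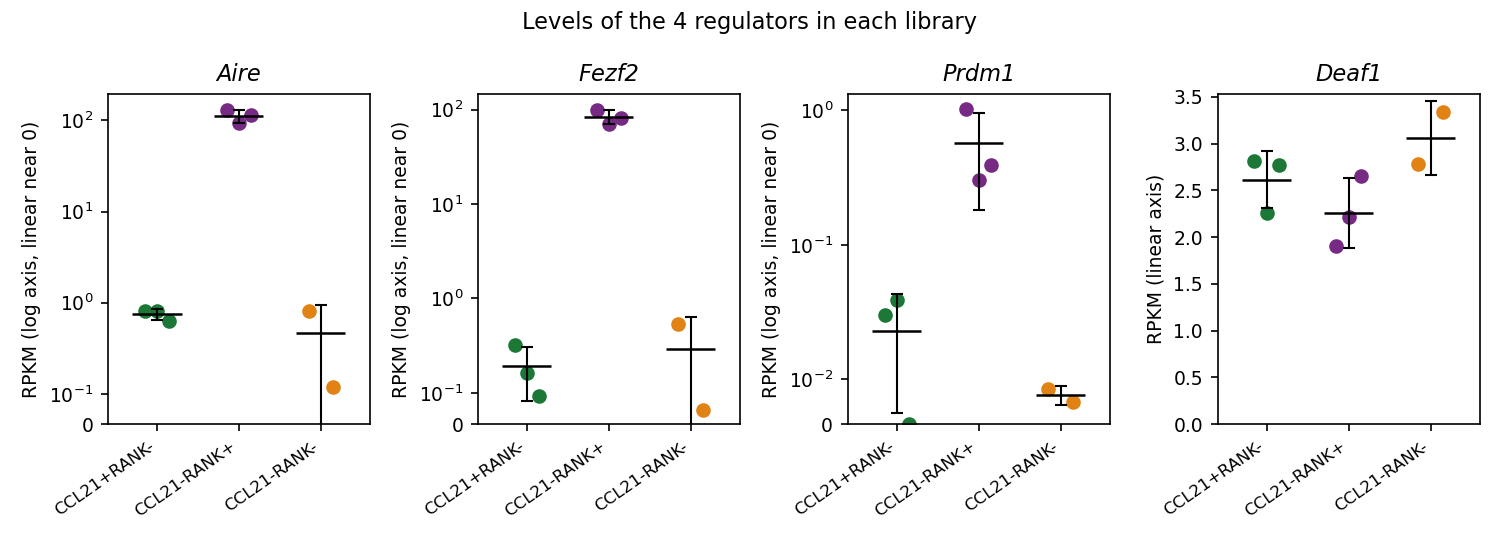
Levels of Aire, Fezf2, Prdm1, and Deaf1 in RPKM, with 1 point per library, the group mean as a horizontal line, and the SD as a bar (n = 3, 3, and 2). The axis is logarithmic with a linear stretch next to 0 for the first 3 genes, where a bar that reaches below 0 ends at the axis, and it is linear for Deaf1. The CCL21-RANK+ libraries of Aire lie between 94.1 and 131 RPKM and every other library lies below 1.

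Aire (ENSMUSG00000000731.15) is a protein-coding gene on the minus strand of chromosome 10, at 78030022 to 78043610 in GRCm38. Its level was 0.802, 0.807, and 0.631 RPKM across the CCL21+RANK- libraries. In the CCL21-RANK+ libraries it was 131, 94.1, and 114 RPKM, from 28684, 18044, and 18604 counts. In the CCL21-RANK- libraries it was 0.810 and 0.120 RPKM, from 209 and 33 counts. The CCL21-RANK+ libraries therefore stood apart from all the others, and the CCL21-RANK- libraries spanned a wider range than the CCL21+RANK- libraries. The log2 fold change of CCL21-RANK+ over CCL21+RANK- TECs was 7.11 ± 0.567 (SE), with an edgeR adjusted p-value of 6.67e-06. Over CCL21-RANK- TECs it was 7.77 ± 0.706, with an edgeR adjusted p-value of 1.81e-05. Without the first CCL21-RANK- library this value was 9.81 and without the second it was 6.92, and both passed the test.

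A gene was called higher or lower where its adjusted p-value was under 0.05, its fold change over 1.5, and its mean over 1 RPKM in the higher population, and Aire was called in both comparisons. As background, 15.4% of the 21451 tested genes were called higher in CCL21-RANK+ TECs than in CCL21+RANK- TECs and 15.4% were called lower. Against CCL21-RANK- TECs, 14.4% were called higher and 15.1% lower. By the adjusted p-value alone, 53.7% of the genes passed in the former comparison and 49.0% in the latter. Both comparisons use the same 3 CCL21-RANK+ libraries.

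The first exons of Aire share their locus with Dnmt3l, a gene on the opposite strand that encodes a cofactor of DNA methyltransferases. The gene spans share 1664 bases, and 17.8% of the exon bases of Aire lie within the span of Dnmt3l, but only 67 exon bases belong to both genes. Dnmt3l was at 0.125 RPKM in CCL21+RANK-, 10.9 RPKM in CCL21-RANK+, and 0.0223 RPKM in CCL21-RANK- TECs. It was called higher in CCL21-RANK+ TECs than in CCL21+RANK- TECs, with a log2 fold change of 6.29 and an edgeR adjusted p-value of 2.66e-05. Whether strand was used in counting is not given in the sources used here, so the reads of the shared stretch cannot be told apart.

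Upstream of the start that RefSeq gives for Aire, which coincides with the start in GENCODE, lies a TATA box. The 120 bases before the start, at chr10:78043611-78043730 on the minus strand of GRCm38.p6, are shown from 5′ to 3′ with the TATA box in capitals.
Aire: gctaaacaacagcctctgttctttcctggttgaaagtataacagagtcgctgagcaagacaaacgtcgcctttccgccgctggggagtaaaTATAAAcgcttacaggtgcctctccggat
The motif TATAAA begins 29 bases before the start, and 12.4% of the 32851 RefSeq mouse promoter windows hold it on either strand in the 250 bases before the start. A CCAAT box (CCAAT) begins 131 bases before the start, beyond the bases shown, and a GC box (GGGCGG) was not found in the 250 bases. Of all windows, 33.8% hold CCAAT and 32.7% hold GGGCGG on either strand. These 3 motifs share no overlapping matches here, and a match is a description of letters and not a binding site.

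Fezf2 (ENSMUSG00000021743.6) is a protein-coding gene on the minus strand of chromosome 14, at 12342094 to 12348189. Its level was 0.319, 0.164, and 0.0893 RPKM across the CCL21+RANK- libraries. In the CCL21-RANK+ libraries it was 98.9, 70.7, and 82.2 RPKM, from 17268, 10804, and 10712 counts. In the CCL21-RANK- libraries it was 0.530 and 0.0458 RPKM, from 109 and 10 counts. As for Aire, every CCL21-RANK+ library was above every other library, and the first CCL21-RANK- library was above the second. The log2 fold change of CCL21-RANK+ over CCL21+RANK- TECs was 8.62 ± 0.694, with an edgeR adjusted p-value of 6.96e-06. Without the first CCL21+RANK- library, where Fezf2 was highest in that population, it was 9.27. Over CCL21-RANK- TECs it was 8.04 ± 0.800, with an edgeR adjusted p-value of 3.18e-05. This value was 10.76 without the first CCL21-RANK- library and 7.11 without the second, again past the test in both cases. Fezf2 was called in both comparisons, and no annotated gene overlaps it.

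**Figure D2:**
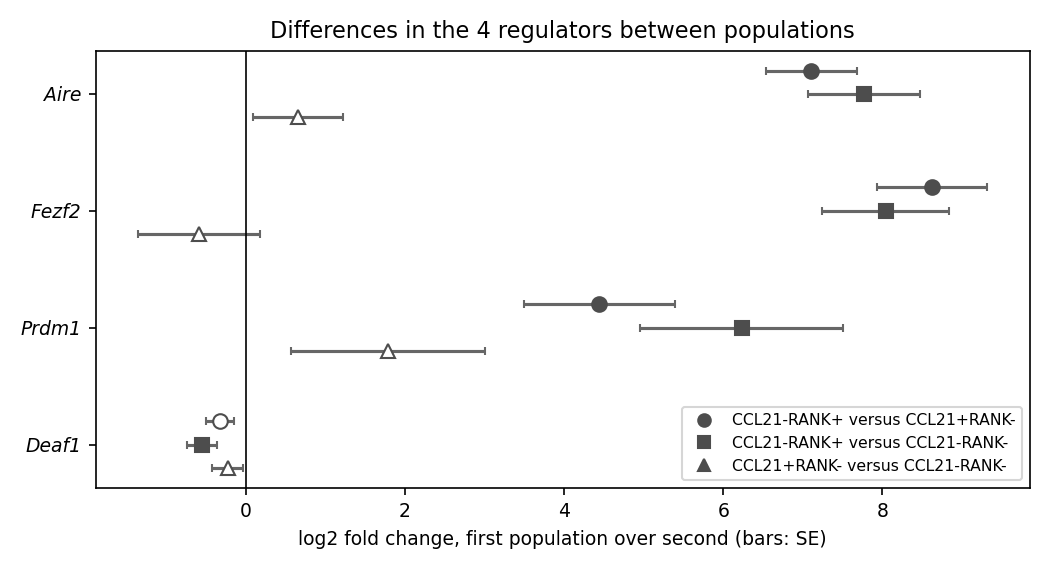
Log2 fold changes of the 4 genes in the 3 comparisons, with the SE as a bar. Filled symbols have an adjusted p-value under 0.05 and open symbols do not. The comparisons with CCL21-RANK+ TECs lie between 4.44 and 8.62 for Aire, Fezf2, and Prdm1, and between -0.55 and -0.32 for Deaf1.

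Prdm1 (ENSMUSG00000038151.13) is a protein-coding gene on the minus strand of chromosome 10, at 44437177 to 44528501. It was rare in all populations, with 10, 10, and 0 counts across the CCL21+RANK- libraries, 326, 85, and 93 counts across the CCL21-RANK+ libraries, and 3 and 2 counts across the CCL21-RANK- libraries. The levels were 0.0300, 0.0390, and 0 RPKM, then 1.02, 0.304, and 0.390 RPKM, and then 0.00797 and 0.00501 RPKM. The CCL21-RANK+ libraries were again above all the others, but the first of them held 1.02 RPKM and the other two less than 0.4. The log2 fold change of CCL21-RANK+ over CCL21+RANK- TECs was 4.44 ± 0.952, with an edgeR adjusted p-value of 0.00328. Without the first CCL21-RANK+ library, it was 3.79, with an edgeR adjusted p-value of 0.0114. Without the second CCL21+RANK- library it was 5.11 and without the third, which had 0 counts, it was 3.84.

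Over CCL21-RANK- TECs the log2 fold change of Prdm1 was 6.23 ± 1.28, with an edgeR adjusted p-value of 0.00294. Without the first CCL21-RANK+ library it was 5.59, with an edgeR adjusted p-value of 0.00755. Pooled counts gave a ratio of 93.3, with a 95% interval from 39.7 to 289 that covers counting error only. Of the 504 CCL21-RANK+ counts behind this ratio, 326 came from the first library. Prdm1 passed the adjusted p-value in both comparisons but was not called, because its mean in CCL21-RANK+ TECs was 0.571 ± 0.391 RPKM (SD, n = 3), under the minimum of 1 RPKM. The level of Aire in the same libraries was 113 ± 18.4 RPKM (SD, n = 3), and that of Fezf2 was 84.0 ± 14.2 RPKM (SD, n = 3). Thus Prdm1 was the least abundant of the 4 transcripts in every library.

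The RefSeq start of Prdm1 lies 69753 bases inside the GENCODE gene span, which also holds transcripts from a more distant start. The 120 bases before it, at chr10:44458749-44458868 on the minus strand of GRCm38.p6, are shown from 5′ to 3′ with a CCAAT box, read from the other strand as ATTGG, in capitals.
Prdm1: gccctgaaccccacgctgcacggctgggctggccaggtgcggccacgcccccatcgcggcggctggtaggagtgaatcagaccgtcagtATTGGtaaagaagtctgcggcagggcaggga
TATAAA and GGGCGG were not found in the 250 bases before this start. These sequences are set side by side because both genes were higher in CCL21-RANK+ TECs, and of the 3 motifs only CCAAT was found in both windows. The window of Fezf2 held GGGCGG, which begins 85 bases before its RefSeq start, and neither of the other motifs, and the window of Deaf1 held none of the 3. The number of CpG dinucleotides in the 250 bases was 11 for Aire, 14 for Fezf2, 15 for Prdm1, and 22 for Deaf1, against a median of 6 over all windows. Fewer were held by 64.4% of all windows for Aire, 70.6% for Fezf2, 72.7% for Prdm1, and 85.2% for Deaf1.

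Deaf1 (ENSMUSG00000058886.9) is a protein-coding gene on the minus strand of chromosome 7, at 141297180 to 141327690. Its level was 2.81, 2.26, and 2.77 RPKM across the CCL21+RANK- libraries. It was 1.91, 2.22, and 2.65 RPKM across the CCL21-RANK+ libraries, and 2.78 and 3.34 RPKM across the CCL21-RANK- libraries. The CCL21-RANK+ libraries overlapped with the CCL21+RANK- libraries and lay below both CCL21-RANK- libraries. The log2 fold change of CCL21-RANK+ over CCL21+RANK- TECs was -0.32 ± 0.175 and did not pass the test (edgeR adjusted p-value of 0.149). Over CCL21-RANK- TECs it was -0.55 ± 0.192, with an edgeR adjusted p-value of 0.0391, and the fold change was under the minimum for a call. The result against CCL21-RANK- TECs did not hold under 11 of the 16 alternative settings, which gave adjusted p-values up to 0.208. Without the third CCL21-RANK+ library the fold change passed the minimum, and Deaf1 was called lower (-0.64, edgeR adjusted p-value of 0.0256). It was also called lower with the replicate number as a block (-0.615, edgeR adjusted p-value of 0.0451). Deaf1 was thus the only one of the 4 genes that was not higher in CCL21-RANK+ TECs.

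Within CCL21-RANK+ TECs the order of the mean levels was Aire, Fezf2, Deaf1, and Prdm1. The ranges of Aire and Fezf2 in these libraries overlapped, although Aire was above Fezf2 in each of the 3. In CCL21+RANK- TECs, Deaf1 was the most abundant of the 4 in each library, followed by Aire, Fezf2, and Prdm1. The same order held in both CCL21-RANK- libraries, where Deaf1 was at 3.06 ± 0.394 RPKM (SD, n = 2) and Aire at 0.465 ± 0.488 RPKM (SD, n = 2).

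The comparison of CCL21+RANK- with CCL21-RANK- TECs asks whether low amounts of these transcripts differ between the populations negative for the RANK reporter. None of the 4 genes passed the test. Of all genes tested, 4.35% were called higher in CCL21+RANK- TECs, 3.66% were called lower, and 11.4% passed the adjusted p-value alone. The log2 fold change of CCL21+RANK- over CCL21-RANK- TECs was 0.66 ± 0.564 for Aire, with an edgeR adjusted p-value of 0.530. For Fezf2 it was -0.58 ± 0.766 (edgeR adjusted p-value of 0.709) and for Prdm1 it was 1.79 ± 1.22 (edgeR adjusted p-value of 0.415). For Deaf1 it was -0.23 ± 0.193, with an edgeR adjusted p-value of 0.530. The result for Aire depended on which CCL21-RANK- library was used, because without the first the log2 fold change was 2.70 (edgeR adjusted p-value of 0.00383) and without the second it was -0.19. For Fezf2 these values were 2.14 and -1.53, and neither passed the test.

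The low levels outside CCL21-RANK+ TECs can be set against the mean level in CCL21-RANK+ TECs. In CCL21+RANK- TECs, Aire was at 0.661% of that mean, Fezf2 at 0.227%, Prdm1 at 4.03%, and Deaf1 at 116%. For Prdm1, the first CCL21-RANK+ library was at 1.02 RPKM against a mean of 0.347 RPKM for the others. The percentage of Prdm1 therefore depends on that library. In the first CCL21-RANK- library, Aire was at 0.717% and Fezf2 at 0.632%, and in the second they were at 0.107% and 0.0546%. The 10 genes listed for mature mTECs covered a wide range on this scale in CCL21+RANK- TECs. It ran from 0.159% for the chemokine gene Ccl22 to 151% for the class II transactivator gene Ciita. The value of Ccl22 rests on 2 counts per CCL21+RANK- library. Its CCL21-RANK+ level was 17.7 RPKM in the first library against a mean of 6.48 RPKM in the others. Cd80, which encodes a costimulatory ligand, was at 0.555% in CCL21+RANK- TECs and at 0.719% and 0.296% in the first and the second CCL21-RANK- library. Ccl22 was at 0.0624% and 0.529% there, in the opposite order to Aire, Fezf2, and Cd80. The part of stray CCL21-RANK+ cells in these levels was not tested.

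Fezf2 and Aire stood in a nearly fixed ratio in CCL21-RANK+ TECs. The level of Fezf2 divided by that of Aire was 0.756, 0.752, and 0.723 in these 3 libraries. In CCL21+RANK- TECs the ratio was 0.398, 0.203, and 0.142, and the highest upper bound of their 95% intervals was 0.537. Each CCL21+RANK- library was therefore below each CCL21-RANK+ library, whose lowest lower bound was 0.706. In CCL21-RANK- TECs the ratio was 0.655 (95% interval 0.515 to 0.829) and 0.380 (0.167 to 0.790), so that both intervals reached the range of the CCL21-RANK+ libraries. The intervals are exact binomial ones and cover counting error only, and the difference between populations was not tested.

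**Figure D3:**
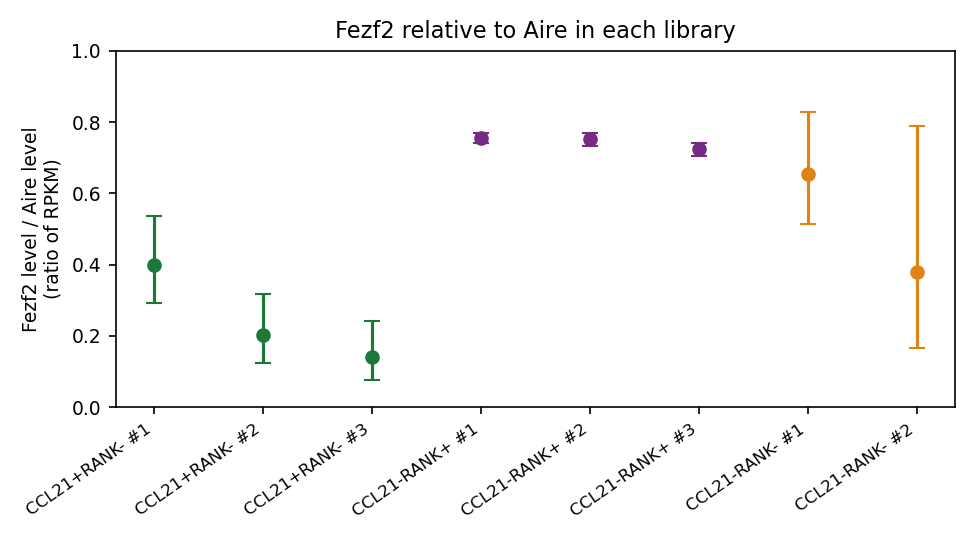
The level of Fezf2 divided by the level of Aire, both in RPKM, in each library, with the exact binomial 95% interval as a bar. The CCL21-RANK+ libraries lie between 0.723 and 0.756, the CCL21+RANK- libraries between 0.142 and 0.398, and the CCL21-RANK- libraries at 0.655 and 0.380.

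The genes whose log2 levels across the 8 libraries were most like those of each regulator were sought among 11816 genes with a mean of at least 5 CPM (counts scaled to equal library totals) in the population where they are highest. Libraries of a population share their sort, so that these correlations largely describe contrasts between populations. For Aire, Fezf2, and Prdm1 this is the contrast between CCL21-RANK+ TECs and the rest. An r above 0.99 was reached by 37 genes for Aire, 24 for Fezf2, 3 for Prdm1, and 0 for Deaf1, so that the genes named for Aire and Fezf2 are some of many. The closest genes to Aire were Grid1, Krt9, Wdr44, Hgf, and Slc30a2, with Pearson r from 0.995 to 0.997 over 8 libraries. Krt9, a keratin of palm and sole epidermis, was at 15.3 RPKM in CCL21-RANK+ and 0.0702 RPKM in CCL21+RANK- TECs, and the zinc transporter gene Slc30a2 was at 18.9 and 0.112 RPKM. The closest genes to Fezf2 were Tnfrsf8, Calcb, Adam12, Grid1, and Oprd1, with r of 0.997 or 0.998. Calcb, which encodes a calcitonin gene-related peptide, reached 94.9 RPKM in CCL21-RANK+ TECs, and Tnfrsf8, which encodes the receptor CD30, reached 29.3 RPKM.

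Those closest to Prdm1 were Steap3, Nod2, Cadm3, Ostf1, and Arhgap4, with r from 0.987 to 0.995, and each had its highest mean in CCL21-RANK+ TECs. Nod2, an intracellular sensor of bacterial peptidoglycan, was at 2.5 RPKM in CCL21-RANK+, 0.156 RPKM in CCL21+RANK-, and 0.0832 RPKM in CCL21-RANK- TECs. For Deaf1 the closest genes were Fpgs, Prkaa1, Alg11, E2f3, and Psmc6, with r from 0.966 to 0.983, and each had its highest mean in CCL21-RANK- TECs. Among the regulators themselves, Aire and Fezf2 gave r = 0.99, Aire and Prdm1 gave 0.936, and Fezf2 and Prdm1 gave 0.938 over 8 libraries. Deaf1 gave negative values, of -0.802 with Aire, -0.755 with Fezf2, and -0.819 with Prdm1.

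Relatives of the 4 regulators were read against the share of all tested genes called in CCL21-RANK+ over CCL21+RANK- TECs, which was 15.4% in either direction. The list of SAND and HSR domain proteins, the family of Aire and Deaf1, held Sp100, Sp110, Sp140, Gmeb1, and Gmeb2. Of these 5 genes, 0 were called higher and 3 lower in CCL21-RANK+ TECs than in CCL21+RANK- TECs, with a median log2 fold change of -1.04 against 0.112 over all genes tested. Sp140, a chromatin reader of immune cells, was at 4.94, 4.11, and 3.89 RPKM in CCL21+RANK- TECs and 2.68, 1.79, and 2.40 RPKM in CCL21-RANK+ TECs (log2 fold change -1.04, edgeR adjusted p-value of 0.00143). Sp100, a component of PML nuclear bodies, and Sp110 were also called lower, by log2 fold changes of -2.29 and -1.56. Their counts are uncertain, because near-identical copies exist in the mouse genome and reads that match several genes were divided among them. Against CCL21-RANK- TECs, Sp100 alone was called lower (-0.73), beside 15.1% of all tested genes, and the median of the 5 genes was -0.16. The same 3 genes were called higher in CCL21+RANK- TECs than in CCL21-RANK- TECs, by 1.25 to 1.56 on the log2 scale. Among all tested genes, 4.35% were called higher in that comparison. Gmeb1 and Gmeb2, which bind glucocorticoid-modulatory elements, were not called in any comparison.

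Of the 14 other PRDM genes listed, 0 were called higher and 2 lower in CCL21-RANK+ TECs than in CCL21+RANK- TECs, with a median log2 fold change of -0.0903, so that the calls on this list were not more frequent than among all genes. The genes called lower were Prdm2, a histone methyltransferase (log2 fold change -0.70, edgeR adjusted p-value of 0.000526), and Prdm11 (-1.26, edgeR adjusted p-value of 0.000398). Prdm11 was also called lower than in CCL21-RANK- TECs, with a log2 fold change of -0.92 and an edgeR adjusted p-value of 0.00485. Prdm8, Prdm13, Prdm14, and Prdm16 were higher by the adjusted p-value in both comparisons but remained under 1 RPKM on average. By the adjusted p-value alone, 4 of the 14 genes were higher and 3 lower than in CCL21+RANK- TECs. Of all tested genes, 53.7% passed there in either direction. Against CCL21-RANK- TECs, 4 were higher and 2 lower, beside 49.0% of all tested genes in either direction. Prdm14, a regulator of pluripotent and primordial germ cells, had 187, 57, and 58 counts across the CCL21-RANK+ libraries and 0 in the 5 others. Set against a floor of 3 counts per library, it was at least 33.9-fold higher than in CCL21+RANK- TECs, or at least 22-fold higher without the first CCL21-RANK+ library. Prdm13, which acts in spinal cord and retinal neurons, had 36, 21, and 23 counts and was likewise at 0 elsewhere. Prdm13 and Prdm14 therefore passed the expression filter only through the CCL21-RANK+ libraries. Prdm16, known from brown fat, was at 0.989, 0.715, and 0.652 RPKM in CCL21-RANK+ and at 0.25 RPKM or less in every other library.

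Fezf1, the paralog of Fezf2, was at 1.25, 0.497, and 1.00 RPKM across the CCL21-RANK+ libraries. It was at 0.0696 RPKM in 1 CCL21+RANK- library and at 0 in the 4 other libraries. It passed the adjusted p-value against CCL21+RANK- TECs (0.00607 by edgeR) without being called. Chd4, a chromatin remodeler known as a partner of Fezf2, was between 46.5 and 61.1 RPKM in all libraries and did not pass the test in any comparison.

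**Figure D4:**
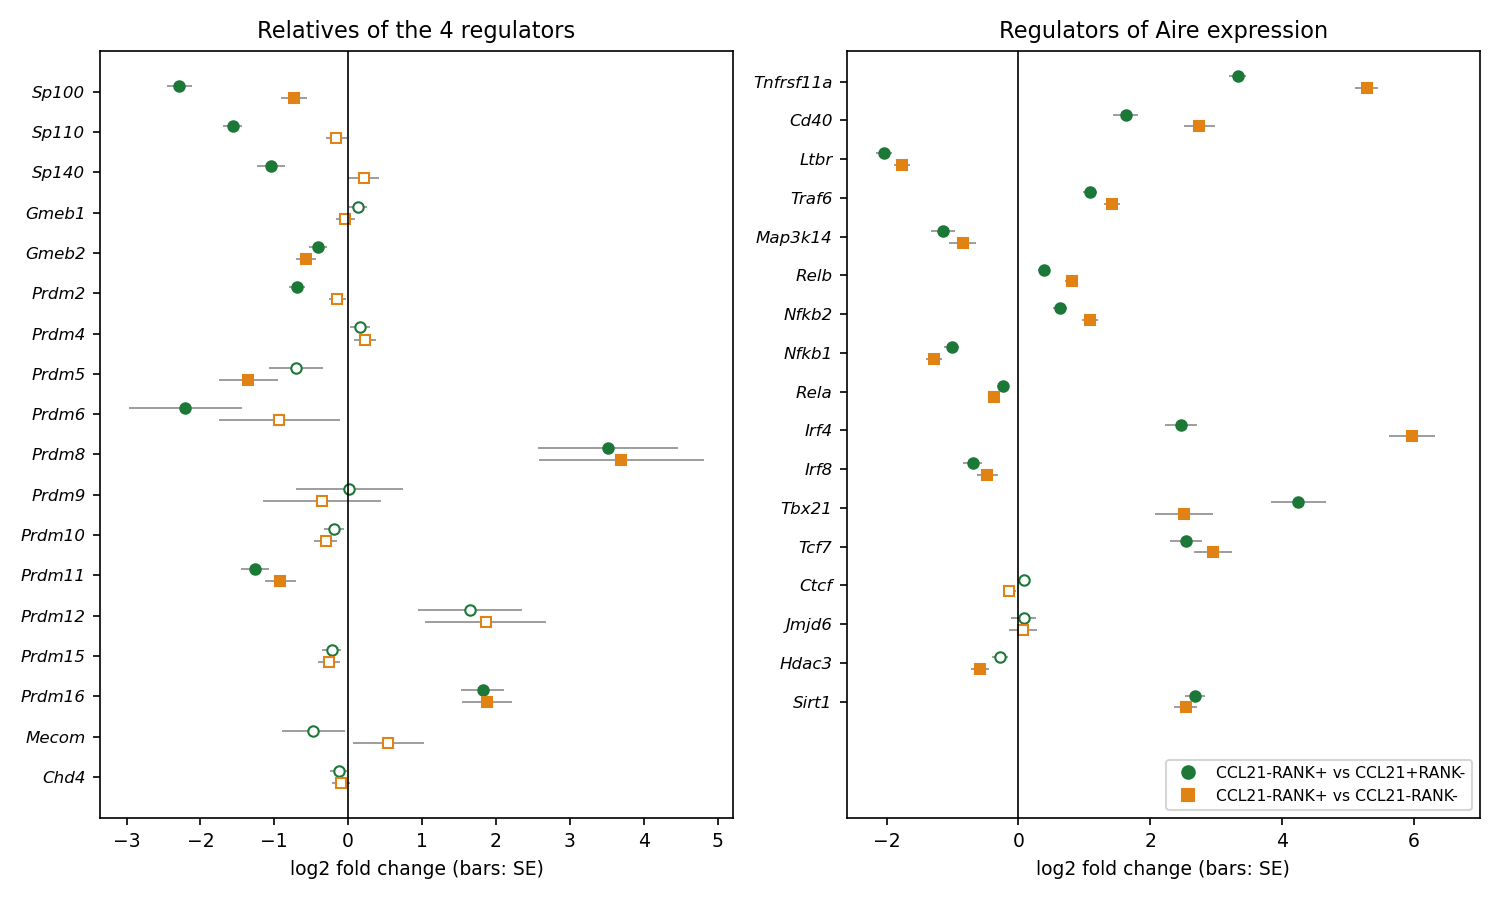
Log2 fold changes of CCL21-RANK+ TECs relative to CCL21+RANK- TECs (circles) and to CCL21-RANK- TECs (squares), with the SE as a bar, for relatives of the 4 regulators (left) and for regulators of Aire expression (right). Filled symbols have an adjusted p-value under 0.05, and Prdm13, Prdm14, and Fezf1 are left out because a population is at 0 in every library. Ltbr, Map3k14, and Nfkb1 lie left of 0 in both comparisons, while Irf4 reaches 5.97 and Tnfrsf11a 5.28 against CCL21-RANK- TECs.

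Aire is induced in mTECs through receptors of the TNF family, and the genes listed as its regulators were split in direction. Of 17 genes, 8 were called higher and 4 lower in CCL21-RANK+ TECs than in CCL21+RANK- TECs (15.4% of all tested genes each way). Without the first CCL21-RANK+ library, 7 were called higher. The median log2 fold change with all libraries was 0.387. Against CCL21-RANK- TECs, 9 were called higher and 4 lower, beside 14.4% and 15.1% of all tested genes. The median was 0.809 compared with 0.0620 over all genes. Among the receptors, Tnfrsf11a was at 111, 93.1, and 107 RPKM in CCL21-RANK+ libraries, which is what the sort selected. Its call as higher was therefore set by the sort. It is nonetheless included in the genes called higher in both comparisons and in both medians. Cd40, a receptor for T cell help, was at 43.0, 23.7, and 31.0 RPKM in these libraries and between 8.45 and 10.7 RPKM across the CCL21+RANK- libraries (log2 fold change 1.63, edgeR adjusted p-value of 7.60e-05). Ltbr, the lymphotoxin beta receptor, went the other way, with 11.8, 12.3, and 10.4 RPKM against 40.6, 44.2, and 45.2 RPKM. Its log2 fold change was -2.04, with an edgeR adjusted p-value of 1.36e-06.

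Of the signaling genes downstream of these receptors, Traf6, an adaptor of RANK and CD40, was called higher in CCL21-RANK+ TECs in both comparisons (log2 fold changes 1.09 and 1.42). Nfkb2, a subunit of the non-canonical NF-kappaB pathway, was also called higher in both (0.63 and 1.08), and its partner Relb was called higher against CCL21-RANK- TECs (0.81) but was under the minimum fold change against CCL21+RANK- TECs (0.39). Map3k14, the kinase NIK that activates this pathway, was called lower in both (-1.15 and -0.85), as was Nfkb1 (-1.01 and -1.28), a subunit of the canonical pathway. Rela, the other canonical subunit, passed the adjusted p-value with log2 fold changes of only -0.24 and -0.37.

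Among the transcription factors on the list, Irf4, an interferon regulatory factor of activated lymphocytes, was at 19.3, 22.0, and 22.5 RPKM in CCL21-RANK+ TECs. It was at 5.15, 2.6, and 2.90 RPKM in CCL21+RANK- TECs and at 0.330 and 0.293 RPKM in CCL21-RANK- TECs, so that the 3 populations did not overlap. Each of its 3 comparisons was called, with edgeR adjusted p-values of 2.55e-05, 1.61e-06, and 0.000240. Tbx21, which encodes T-bet, and Tcf7, a factor of the Wnt pathway, were called higher in CCL21-RANK+ TECs in both comparisons. Tbx21 was at 6.02, 3.41, and 5.57 RPKM in these libraries and under 1 RPKM in all others. Irf8 was called lower against CCL21+RANK- TECs alone (log2 fold change -0.69), and the difference between its effects was not tested. Sirt1, a deacetylase known to act on Aire protein, was at 28.9, 22.4, and 27.7 RPKM in CCL21-RANK+ TECs and between 3.28 and 4.51 RPKM in every other library. Its log2 fold change was 2.68 against CCL21+RANK- TECs (edgeR adjusted p-value of 1.02e-06) and 2.54 against CCL21-RANK- TECs (edgeR adjusted p-value of 3.27e-06). Hdac3 was called lower against CCL21-RANK- TECs (-0.59), whereas Ctcf and Jmjd6 did not pass the test.

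Of the 17 genes, those called in CCL21+RANK- against CCL21-RANK- TECs were Tnfrsf11a, Cd40, and Irf4, and each was higher in the former. Among all tested genes, 4.35% were called higher in this comparison and 3.66% lower. The log2 change was 1.96 for Tnfrsf11a, 1.12 for Cd40, and 3.51 for Irf4. These genes therefore had their middle level in CCL21+RANK- TECs, where Aire itself was at 0.747 ± 0.1 RPKM (SD, n = 3).

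Self-antigen genes that are known from other work to depend on Aire had their highest mean levels in CCL21-RANK+ TECs, but 4 of the 8 in the table were at 0 in the third library of this population. Of 9 such genes listed, 8 were in the table, 5 passed the expression filter, and 4 were called higher than in CCL21+RANK- TECs, where 15.4% of all tested genes were. The same number was called higher than in CCL21-RANK- TECs, where 14.4% of all tested genes were. Since a gene at 0 elsewhere passes the filter only through the CCL21-RANK+ libraries, the counts of genes tested do not stand for all those listed. Csn2, which encodes the milk protein beta-casein, was at 29.3, 10.3, and 12.2 RPKM in CCL21-RANK+ TECs and under 0.1 RPKM in every other library. Tff3, an intestinal trefoil factor, was at 28.6, 3.72, and 4.22 RPKM and at 0 in both CCL21-RANK- libraries, which makes it at least 139-fold higher, or at least 45.3-fold higher without the first CCL21-RANK+ library. Chrna1, the muscle acetylcholine receptor subunit, was at 1.99, 0.473, and 0.896 RPKM. Resp18, a neuroendocrine gene, was at 4.60, 0.193, and 0.725 RPKM and at least 33.5-fold higher than in CCL21+RANK- TECs, where it was at 0. Without the first CCL21-RANK+ library this bound was 8.37-fold.

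Ins2, which encodes insulin, had 70, 10, and 0 counts across the CCL21-RANK+ libraries and 0 in all others, and it passed the adjusted p-value against CCL21+RANK- TECs (0.0380 by edgeR) without being called. Against CCL21-RANK- TECs it did not pass (0.0647 by edgeR). Rbp3, Fabp9, and Mup4 were under the filter, and at this depth none of them was detected in the third CCL21-RANK+ library.

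The first CCL21-RANK+ library stood above the other two for most of these antigens. Its level was 5.06 times the mean of the other two by the median of 6 Aire-dependent genes with enough counts, whereas the median over 12735 genes above 1 RPKM was 1.04. For the 4 regulators the median was 1.27. It was 3.58 for markers of B cells and plasma cells, 2.41 for parathyroid markers, and 2.29 for those of dendritic cells and macrophages. For endothelium and mesenchyme it was 1.77, for thymocytes 1.47, and for TECs 1.06. The part of such other cells in the antigen levels was not tested. Without this library, 2 of the Aire-dependent genes were called higher in each comparison, instead of 4.

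Of 9 self-antigen genes known to depend on Fezf2, 8 were tested, and 6 were called higher in CCL21-RANK+ TECs than in CCL21+RANK- TECs, beside 15.4% of all tested genes. Against CCL21-RANK- TECs, 6 were also called, beside 14.4% of all tested genes, and without the first CCL21-RANK+ library 5 were called in each comparison. Without the first CCL21-RANK- library, 4 were called against the remaining one. Apob, which encodes the main protein of lipoprotein particles, was at 2.80, 0.947, and 1.68 RPKM in CCL21-RANK+ TECs and under 0.01 RPKM elsewhere. Fabp7, a fatty acid binding protein of brain glia, was at 5.17, 2.74, and 3.48 RPKM in CCL21-RANK+ TECs and at 0.174 RPKM or less elsewhere (log2 fold change over CCL21+RANK- TECs 5.03, edgeR adjusted p-value of 0.000236). Ttr, the thyroid hormone carrier transthyretin, was at 2.53, 0.168, and 0.473 RPKM and at 0 in all other libraries. Ttr was at least 22.1-fold higher than in CCL21+RANK- TECs, or at least 6.72-fold higher without the first CCL21-RANK+ library. Bhmt, a liver enzyme of methionine metabolism, had 293, 122, and 104 counts against 0 in all other libraries, and was at least 58.7-fold higher than in CCL21+RANK- TECs. It passed the adjusted p-value but was under 1 RPKM. Ttr and Bhmt, at 0 elsewhere, passed the expression filter only through the CCL21-RANK+ libraries. Apoc3, with 28, 0, and 3 counts in these libraries, was under the filter. The counts of genes tested and called therefore do not stand for all those listed.

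Maoa, monoamine oxidase A, behaved differently within this list. It was at 5.02, 6.89, and 6.64 RPKM in CCL21-RANK+, at 1.34, 1.04, and 1.02 RPKM in CCL21+RANK-, and at 2.79 and 3.14 RPKM in CCL21-RANK- TECs. It was called in all 3 comparisons and its log2 fold change of CCL21+RANK- relative to CCL21-RANK- TECs was -1.38 (edgeR adjusted p-value of 0.00328). Col17a1, a hemidesmosomal collagen, was called only against CCL21-RANK- TECs, and Nol4 only against CCL21+RANK- TECs, and the differences between these effects were not tested.

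**Figure D5:**
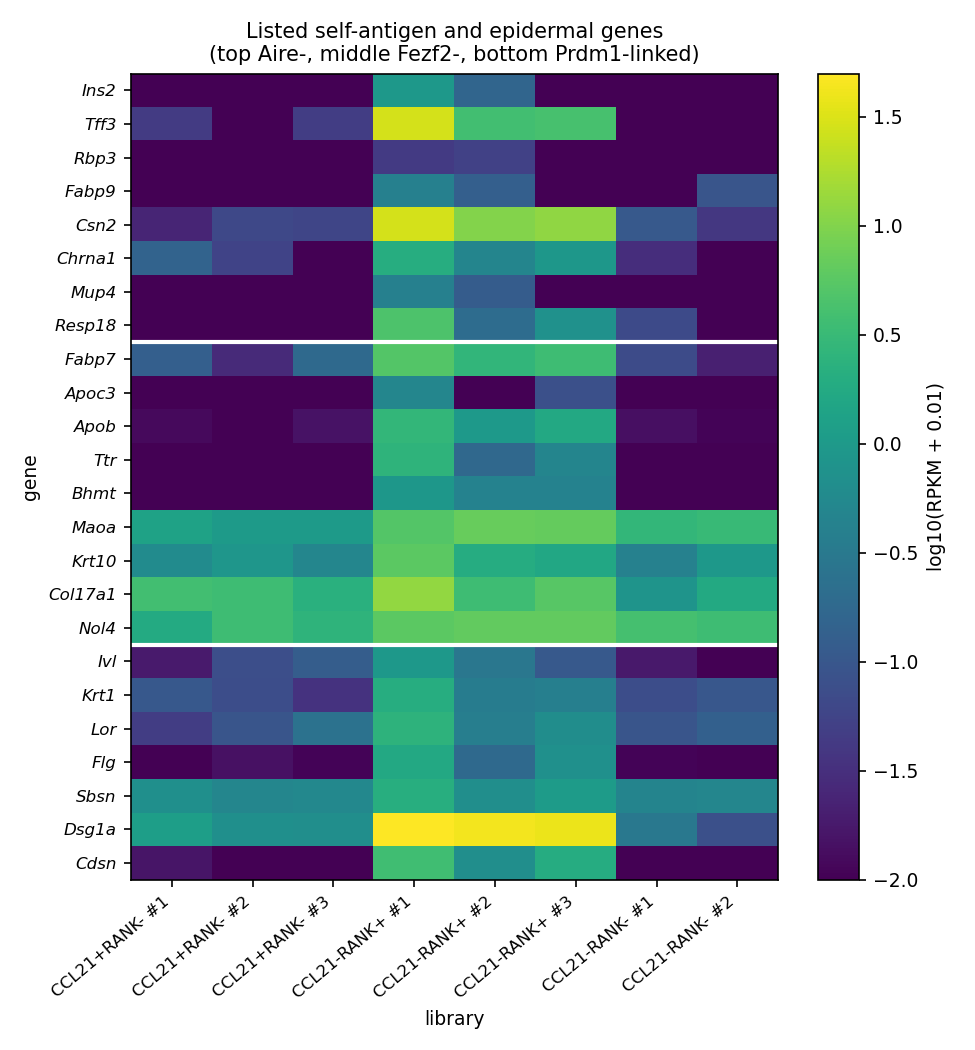
Levels of 24 listed genes in the 8 libraries, as log10 of RPKM plus 0.01, with Aire-dependent self-antigens at the top, Fezf2-dependent ones in the middle, and epidermal differentiation genes at the bottom. Most of these genes lie at or near the darkest color outside the CCL21-RANK+ columns, where Dsg1a reaches 49.9 RPKM, whereas Maoa, Col17a1, and Nol4 were at 0.809 RPKM or more in every library.

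Genes of epidermal differentiation, in which Prdm1 is known to act, were in part higher in CCL21-RANK+ TECs. Of 8 genes, 4 were called higher than in CCL21+RANK- TECs (15.4% of all tested genes) and 5 higher than in CCL21-RANK- TECs (14.4% of all tested genes), and without the first CCL21-RANK+ library 3 were called in each comparison. Without the first CCL21-RANK- library, 2 were called against the remaining one. The median log2 fold changes were 3.42 and 4.85, against 0.112 and 0.0620 over all genes. Dsg1a, a desmosomal cadherin of the upper epidermis, was at 49.9, 42.8, and 38.7 RPKM in CCL21-RANK+ TECs and at 1.17 RPKM or less elsewhere. Its log2 fold change over CCL21+RANK- TECs was 5.57, with an edgeR adjusted p-value of 5.56e-06. Lor, which encodes loricrin of the cornified envelope, was at 2.43, 0.370, and 0.631 RPKM in CCL21-RANK+ TECs, and Krt10, a suprabasal keratin, at 5.85, 1.94, and 1.65 RPKM. Krt10 was also on the Fezf2 list. Like Prdm1, all 8 genes (Dsg1a, Lor, Krt10, Krt1, Ivl, Flg, Sbsn, and Cdsn) were highest in the first CCL21-RANK+ library. The median of the first library over the mean of the other two was 3.52 for this list.

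Genes of mature mTECs were mostly higher as well. Of 10 genes, 7 were called higher and 1 lower in CCL21-RANK+ TECs than in CCL21+RANK- TECs, with a median log2 fold change of 0.829 against 0.112 over all genes, of which 15.4% were called in each direction, and without the first CCL21-RANK+ library 5 were called higher. Against CCL21-RANK- TECs, 9 were called higher, beside 14.4% of all tested genes. Cd80 itself was at 12.6, 6.79, and 7.39 RPKM in CCL21-RANK+ TECs and at 0.129 RPKM or less elsewhere. Ctss, the protease cathepsin S of antigen processing, was at 95.5, 47.8, and 56.3 RPKM, against 3.94, 2.39, and 3.61 RPKM in CCL21+RANK- and 0.884 and 0.802 RPKM in CCL21-RANK- TECs. Ctss was called in all 3 comparisons. In CCL21+RANK- over CCL21-RANK- TECs, it was 1 of 4 genes called higher, with Ciita, H2-Eb1, and Il2ra, beside 4.35% of all tested genes. Fewer were called without the first CCL21-RANK- library, which leaves 1 library in that population. Of the class II genes, H2-Aa, H2-Eb1, and Cd74 were called higher in CCL21-RANK+ TECs in both comparisons, but their levels in CCL21+RANK- TECs were 49.9%, 53.5%, and 53.3% of those in CCL21-RANK+ TECs. H2-Ab1 was called against CCL21-RANK- TECs alone, since against CCL21+RANK- TECs its log2 fold change was 0.35 (edgeR adjusted p-value of 0.102) and its level there was 71.7%, and the difference between these effects was not tested. Reads of H2 genes can be divided among related genes. Ciita was the gene called lower, at 23.3, 15.4, and 17.7 RPKM in CCL21-RANK+ TECs against 30.9, 29.5, and 25.0 RPKM in CCL21+RANK- TECs (log2 fold change -0.74, edgeR adjusted p-value of 0.00333).

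The breadth of the transcriptome was compared after thinning each library to 42751839 counts. Genes with at least 10 counts numbered 20580, 19100, and 19679 across the CCL21-RANK+ libraries. They numbered 16715, 16595, and 16669 across the CCL21+RANK- libraries and 16398 and 16291 across the CCL21-RANK- libraries. The 3 populations did not overlap at this minimum, and CCL21-RANK+ TECs had 3127 more genes on average than CCL21+RANK- TECs and 3442 more than CCL21-RANK- TECs. Each of the 3 comparisons gave a two-sided exact permutation p-value of 0.1, the smallest that 3 libraries against 3 or 2 can give. Without the first CCL21-RANK+ library, which had the most genes, the excesses were 2730 and 3045. With a minimum of 1 count, the CCL21+RANK- libraries had 20996, 21360, and 20268 genes and the CCL21-RANK- libraries 22060 and 21463, so that the order of these populations turned, while the CCL21-RANK+ libraries, with 23996 or more, remained above both.

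Genes that lie next to the 4 regulators were examined for comparison. Of 17 overlapping or adjacent genes, 13 were tested, and 7 were called higher and 2 lower in CCL21-RANK+ TECs than in CCL21+RANK- TECs, beside 15.4% of all tested genes in each direction. Beyond Dnmt3l, Icosl lies 25692 bases from Aire and encodes the ligand of the costimulatory receptor ICOS. It was at 43.7 RPKM in CCL21-RANK+, 1.64 RPKM in CCL21+RANK-, and 0.819 RPKM in CCL21-RANK- TECs (log2 fold change over CCL21+RANK- TECs 4.60, edgeR adjusted p-value of 5.78e-07). Pfkl, a glycolytic enzyme gene on the other side of Aire, was not called, and 1810043G02Rik beyond it was called lower (0.962 against 3.31 RPKM, log2 fold change -1.88, edgeR adjusted p-value of 5.24e-05). Near Fezf2, Cadps and the noncoding gene Gm48239, which lies within the span of Cadps on the opposite strand, were called higher, with log2 fold changes of 1.91 and 6.60. The only tested neighbor of Prdm1, the autophagy gene Atg5, had a log2 fold change of 0.0674 and was not called.

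Of the 4 genes next to Deaf1, Sct and Eps8l2 were called higher in CCL21-RANK+ TECs, Tmem80 was called lower, and Drd4 was not called. Sct, which encodes the gut hormone secretin and lies 18047 bases away, was at 6.92 RPKM in CCL21-RANK+ and 0.00866 RPKM in CCL21+RANK- TECs, with an edgeR adjusted p-value of 0.000142. The dopamine receptor gene Drd4, 716 bases from Deaf1, passed the adjusted p-value (0.0043 by edgeR) but was at 0.791 RPKM in CCL21-RANK+ TECs. Eps8l2, which lies beyond Tmem80, had a log2 fold change of 1.35. Tmem80 starts 49 bases from the start of Deaf1 and is transcribed away from it. It was called lower in CCL21-RANK+ TECs, with 1.71 against 2.36 RPKM and a log2 fold change of -0.59 (edgeR adjusted p-value of 0.0449), beside the -0.32 of Deaf1.

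The leukocyte gene Ptprc, which encodes the CD45 used for exclusion, was between 0.0351 and 0.193 RPKM outside CCL21-RANK+ TECs. Within them it was at 0.576, 0.177, and 0.422 RPKM. Of 8 TEC markers, 1 was called higher (Epcam) and 5 lower in CCL21-RANK+ TECs than in CCL21+RANK- TECs. The share of all tested genes was 15.4% in each direction, and the median log2 fold change of these markers was -1.1. Against CCL21-RANK- TECs, 3 were called higher and 4 lower, beside 14.4% and 15.1% of all tested genes. Markers of other cells were examined by list, beside the 15.4% of all tested genes called higher than in CCL21+RANK- TECs and the 14.4% called higher than in CCL21-RANK- TECs. Of 11 thymocyte markers, 2 were called higher than in CCL21+RANK- TECs (Lck and Cd4), and their summed level was 22.6, 10.1, and 19.1 RPKM in CCL21-RANK+ libraries, led by Rag1 or Lck, against 12.7, 5.48, and 7.24 RPKM in CCL21+RANK- and 3.98 and 3.52 RPKM in CCL21-RANK- libraries.

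Of 8 dendritic cell and macrophage markers, 3 were called higher than in CCL21+RANK- TECs (Csf1r, Adgre1, and Lyz2) and 1 lower (Mpeg1). Their summed level was 69.4, 24.4, and 28.2 RPKM in CCL21-RANK+ libraries, of which Lyz2 made up 52.3, 14.7, and 17.8 RPKM, while Fcgr1 was at 0 in all libraries. The sum was 19.8 to 21.1 RPKM in CCL21+RANK- libraries and 4.39 and 5.78 RPKM in CCL21-RANK- libraries, led by Mpeg1. Of 7 B cell and plasma cell markers, Cd79b and Pax5 were called higher, with sums of 12.0, 5.89, and 7.33 RPKM led by Cd79b, against 0.443 to 1.38 RPKM elsewhere. Jchain was under the filter. Of 7 endothelial and mesenchymal markers, Pdgfrb and Col1a1 were called higher, with sums of 33.8, 13.6, and 21.9 RPKM led by Col1a1, against 0.804 to 2.86 RPKM elsewhere. Against CCL21-RANK- TECs, 5 thymocyte markers were called higher (Lck, Cd4, Cd8a, Cd8b1, and Rag1). By the adjusted p-value alone, 9 of the 11 passed, beside 49.0% of all tested genes in either direction. The other 3 lists had the same markers called higher as against CCL21+RANK- TECs, and no marker of the 4 lists was called lower. The part of such cells in the levels of Aire, Fezf2, and Prdm1 was not tested.

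The 4 parathyroid markers were instead called higher in CCL21+RANK- TECs in both of its comparisons. Among all tested genes, 15.4% were called higher there than in CCL21-RANK+ TECs and 4.35% higher than in CCL21-RANK- TECs. The summed level of the 4 markers was 7120, 1750, and 1960 RPKM in CCL21+RANK- libraries, led by Chga. It was between 11.1 and 24.9 RPKM in all others. Pth, the gene for parathyroid hormone, was between 848 and 3000 RPKM in CCL21+RANK- libraries. Its mean was 1.16 RPKM in CCL21-RANK+ and 10.6 RPKM in CCL21-RANK- TECs. Gcm2 was at 12.0, 4.05, and 5.05 RPKM in CCL21+RANK- TECs. Within CCL21+RANK- TECs, Fezf2 was highest in the first library as well (0.319 RPKM), but Aire was as high in the second (0.807 RPKM), and the part of these cells in their levels was not tested.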

How the data were processed

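The authors deposited 1 table of expected counts per gene for 8 libraries. Per the submitters' processing notes, Trimmomatic, STAR 2.5.1 and RSEM 1.3.1 were used, with bcl2fastq 2.20 and mm10. RSEM divides reads that match several genes. Library kits differ between sources (NEBNext Ultra II Directional in the sample records, TruSeq Stranded Total RNA in the methods). Gm26917 and Gm42418 took 6.89% to 19.4% and 1.47% to 10.7% of each library, which lowers all RPKM.

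Rounded counts entered edgeR 4.0.16 in R 4.3.3 (TMM, filterByExpr, quasi-likelihood test, Benjamini-Hochberg over 21451 genes), with 1 model of 3 group means over 8 libraries, tested on simulated data. All 55450 identifiers matched GENCODE M21 (GRCm38), which gave positions and exon lengths. Promoter windows came from RefSeq (GRCm38.p6). The common biological coefficient of variation was 0.326. Replicate counts differed beyond sampling noise (chi-square per gene 77.3 to 275). Similarity used log2 CPM with a prior count of 2. The 4 genes and all lists were chosen with earlier results of these data known. Named were the 4 genes, listed genes that passed or were near 0, the 5 most similar genes (predicted genes and pseudogenes left out), and overlapping genes with the nearest 2 on each side. Alternatives were DESeq2 1.42.0, other scalings and filters, only the libraries compared, a replicate block, and leaving out libraries or Gm26917 and Gm42418. List counts and lower bounds without single libraries were added after seeing the data.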

Additional observations from a re-analysis of the deposited data

How the results depend on the processing

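The log2 fold changes of Aire, Fezf2, and Prdm1 for CCL21-RANK+ over either other population passed the adjusted p-value under every alternative that gave a value (16 for Aire and Fezf2, 15 for Prdm1, which has no value at 10 or more counts in every library). Deaf1 against CCL21-RANK- TECs lost significance with DESeq2 size factors (-0.414), upper-quartile factors (-0.43), the DESeq2 Wald test (-0.415), no filter (-0.50), 10 or more counts in every library (-0.347), and only the libraries compared (-0.545), and leaving out 1 library gave -0.637 to -0.395. These scalings moved the median log2 fold change of all genes by 0.137 and 0.116, and relative to that median Deaf1 was at -0.608 originally and at -0.613 and -0.608 with them. Leaving out 1 library for CCL21+RANK- over CCL21-RANK- TECs gave -0.191 to 2.70 for Aire and -1.53 to 2.14 for Fezf2, turning their direction, and 657 to 2066 genes called (1720 with all libraries), with 772 without the first CCL21-RANK- library and 657 without the second. The lone library was then assumed to vary like the others. The adjusted p-value alone gave 11516 and 10501 genes against 6617 and 6332 for CCL21-RANK+ over CCL21+RANK- and CCL21-RANK- TECs. At 1 count, CCL21+RANK- libraries minus CCL21-RANK- libraries gave a difference of -886.83 detected genes instead of 315.17.

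Libraries of CCL21-RANK+ and CCL21+RANK- TECs that share a number deviated together with r of 0.126, 0.0485, and 0.0707. Pairs with a CCL21-RANK- library that share a number gave r between -0.117 and -0.0411. Pairs that do not share a number gave r between -0.0984 and 0.117, and no source ties the numbers to shared embryos. The replicate block gave 6616, 6324, and 1913 called genes and 7.11 for Aire over CCL21+RANK- TECs, and it kept the 4 genes on the same side of the adjusted p-value, but Deaf1 over CCL21-RANK- TECs (-0.615, edgeR adjusted p-value of 0.0451) then passed the minimum fold change and was called lower. Without Gm26917 and Gm42418 in the library totals, the mean level of Aire in CCL21-RANK+ TECs was 142 RPKM and that of Fezf2 was 105 RPKM. Depth limits Prdm1 most, with at most 10 counts in any library outside CCL21-RANK+ TECs. The causes of these changes were not tested.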
